A study of Mus musculus with 12 samples.

Results

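Cadherins are cell adhesion proteins whose outer domains bind calcium and, in most members, bind the same cadherin on the neighbouring cell. Classical cadherins hold adherens junctions together through catenins, which link their inner tail to actin, and VE-cadherin is the main one of endothelium. In lymphatic vessels these junctions take different forms, with button-like contacts between capillary cells that let fluid in and continuous zipper-like contacts between collecting vessel cells. Non-clustered protocadherins are a related branch that adhere more weakly, do not use the catenins of classical cadherins and act largely as signalling and sorting receptors, best known from the nervous system.

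The 8 genes described here are 4 cadherins, Cdh5, Cdh13, Cdh2 and Cdh11, and 4 non-clustered protocadherins, Pcdh7, Pcdh17, Pcdh12 and Pcdh1, of 30751 genes that had a row of their own on the array and 19677 genes that were tested. They were picked from their names with earlier results of these arrays known, and each gene's row was chosen by its brightness over the 12 arrays, although each had 1 row only. Their levels and differences are therefore given as a description, without p-values, and how many of them passed the threshold over all genes is not used as support. All 8 were above the array's median on at least 3 arrays. Cdh2 met that limit only through blood endothelium, where it was above the median on 3 of 3 arrays. It was above the median on 0 of 3 arrays in col LEC and on 1 of 3 each in pre-col LEC and cap LEC.

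Endothelial cells came from the ear skin of C57BL6 mice, 5 weeks old by the study's design text and called adult in the labels. All mice carried the transgene Tg(Prox1-EGFP)KY221Gsat, in which Prox1 regulatory sequence drives green fluorescent protein in lymphatic endothelial cells (LEC), so every group shares this reporter. Cells enriched on PECAM1 antibody beads were sorted on PDPN, Prox1-GFP and LYVE1: collecting vessel cells (col LEC) had low or no LYVE1, pre-collecting vessel cells (pre-col LEC) an intermediate level and capillary cells (cap LEC) a high level, while blood endothelial cells (BEC) carried PECAM1 and none of the other 3 markers. Each of the 4 groups had 3 biological replicates, and whether a replicate was a single mouse or a pool is not given in the sources used here, so errors and p-values measure the spread between these samples.

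Values are RMA values on the log2 scale, where a difference of 1 is a 2-fold difference, and levels of different genes are not compared because each row has its own probes. The number of arrays limits the precision. Array medians lay between 6.06 and 6.17, and the array's negative control rows had a 95th percentile of 8.92 to 9.34; differences between values below that level may be compressed. On all arrays Cdh5 and Cdh13 were above this percentile. Pcdh1 and Pcdh17 were above it on the 3 BEC arrays and on no LEC array, Pcdh12 on 1 BEC array, and Cdh2, Cdh11 and Pcdh7 on none. Marker lists were set beside the labels. The mean of 8 endothelial markers was 11.06 to 11.57 over the 12 arrays. That of 6 lymphatic markers was 11.86 to 12.68 on LEC arrays, against 7.11 to 8.24 on BEC arrays. Pecam1 is in the endothelial list, and Prox1, Pdpn and Lyve1 are in the lymphatic list. Cells were enriched or sorted on these, so these means partly follow the sort and are no independent check. The mean of 7 blood endothelial markers was 7.83 to 8.42 on LEC arrays, against 11.33 to 11.54 on BEC arrays, while 6 Schwann cell markers averaged 6.86 to 7.08 and 9 leukocyte markers 5.91 to 6.21 over all arrays. These are amplified bulk samples, in which fewer cells of a type and less RNA per cell cannot be told apart.

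The 8 genes fell into different patterns over the 4 groups. Cdh5 and Cdh13 were high in every group and varied least. Cdh2 and Pcdh1 differed between LEC and BEC but hardly among LEC. Pcdh7 and Pcdh17 ran in opposite directions along the lymphatic vessel, Pcdh7 being highest in col LEC and Pcdh17 lowest there, and Pcdh12 ran the same way as Pcdh17 over a smaller range. The range over the 4 group means was 3.11 for Pcdh17, 2.79 for Pcdh1, 1.68 for Pcdh7, 1.18 for Pcdh12, 1.16 for Cdh2, 0.70 for Cdh11, 0.45 for Cdh5 and 0.27 for Cdh13.

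**Figure D1:**
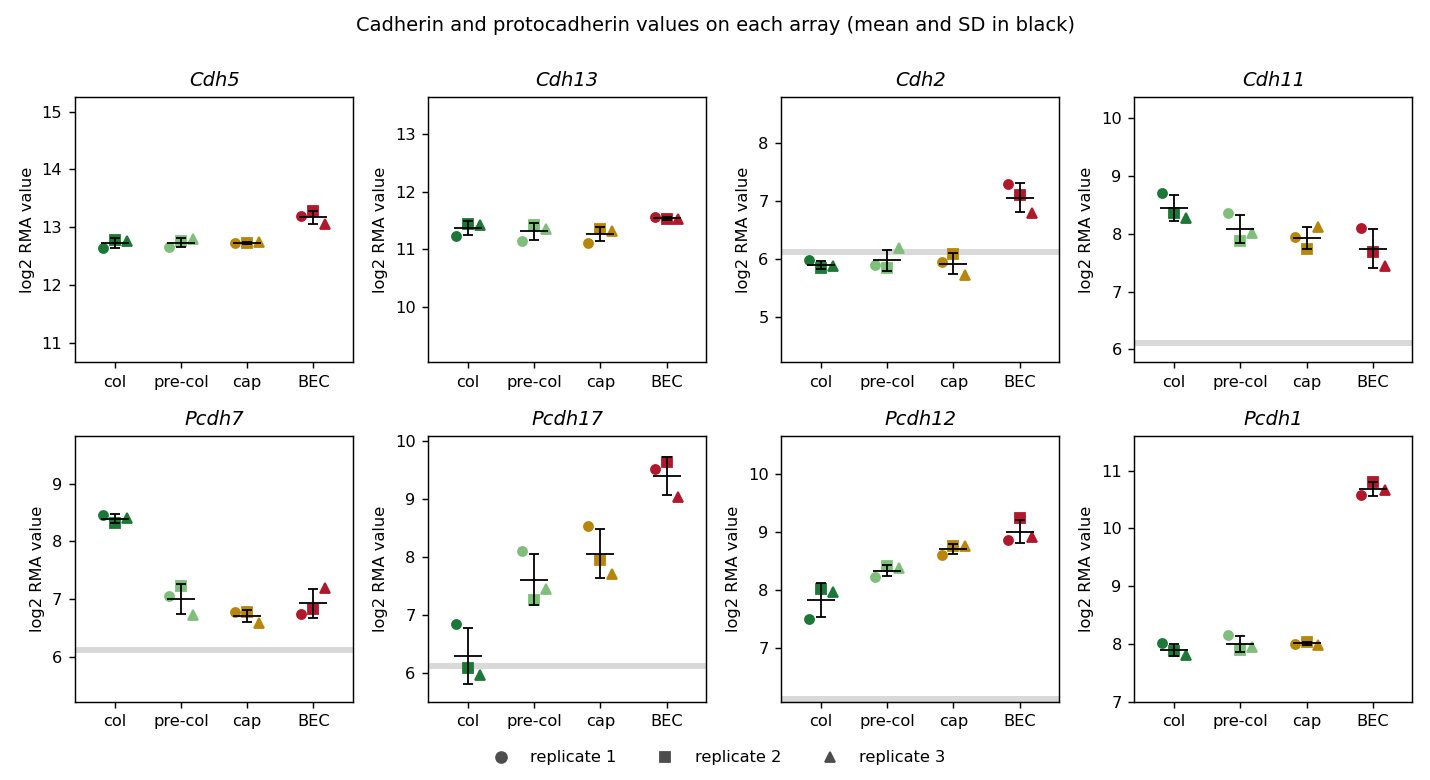
Log2 RMA value (y axis, 4.6 log2 units in every panel) of each gene in col LEC, pre-col LEC, cap LEC and BEC (x axis). Symbols are the 3 arrays of a group, black bars the mean and SD, and the grey band the range of array medians from 6.06 to 6.17. Pcdh7 is highest in col LEC, Pcdh17 and Pcdh12 are lowest there, and Pcdh1 and Cdh2 are set apart in BEC only.

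Cdh5 (TC0800001176.mm.1) encodes VE-cadherin, the adherens junction cadherin shared by blood and lymphatic endothelium. It was measured at 12.64, 12.78 and 12.77 in col LEC, at 12.65, 12.76 and 12.79 in pre-col LEC, at 12.72, 12.73 and 12.75 in cap LEC, and at 13.19, 13.28 and 13.05 in BEC. Every BEC array was above every LEC array, while the arrays of the 3 LEC groups overlapped fully. The LEC group means were 12.73 ± 0.08 in col LEC, 12.73 ± 0.07 in pre-col LEC and 12.73 ± 0.01 in cap LEC, against 13.17 ± 0.11 in BEC (SD, n = 3 each). The LEC average over 3 groups minus BEC was -0.44 ± 0.07 (moderated SE), a 1.36-fold lower value in LEC. It was -0.58 after cyclic loess scaling. The difference of VE-cadherin RNA between collecting and capillary cells was smaller than the standard error of 0.08.

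Cdh13 (TC0800001414.mm.1) encodes T-cadherin, which is held to the membrane by a lipid anchor, has no inner tail and binds adiponectin. Its values were 11.24, 11.44 and 11.43 in col LEC, 11.14, 11.43 and 11.36 in pre-col LEC, 11.12, 11.36 and 11.32 in cap LEC, and 11.57, 11.52 and 11.53 in BEC. The BEC arrays were above all LEC arrays, by a small margin, and replicate 1 was the lowest array of each LEC group. Means were 11.37 ± 0.11 in col LEC, 11.31 ± 0.15 in pre-col LEC and 11.27 ± 0.13 in cap LEC, against 11.54 ± 0.03 in BEC (SD, n = 3 each), so the LEC average minus BEC was -0.22 ± 0.08. After cyclic loess scaling this difference was -0.34. Among the LEC groups the largest difference was 0.10 ± 0.10, for col LEC minus cap LEC.

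Cdh2 (TC1800001026.mm.1) encodes N-cadherin, which joins neurons and mesenchymal cells and, in blood vessels, endothelial cells to the mural cells around them. In col LEC it was at 5.98, 5.85 and 5.87, in pre-col LEC at 5.89, 5.85 and 6.19 and in cap LEC at 5.94, 6.09 and 5.73, against 7.29, 7.10 and 6.80 in BEC. All BEC arrays were above all LEC arrays, and the LEC groups overlapped one another. Their means were 5.90 ± 0.07, 5.98 ± 0.19 and 5.92 ± 0.18 in col, pre-col and cap LEC, against 7.06 ± 0.24 in BEC (SD, n = 3 each). The LEC average over 3 groups minus BEC was -1.13 ± 0.11, a 2.19-fold lower value in LEC. LEC values lay about the array median, so that this difference may be compressed. Cdh2 met the limit on low values only through BEC, so a higher value in BEC was favoured by that limit.

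Markers of mural cells, the pericytes and smooth muscle cells that carry N-cadherin themselves, were higher in the same BEC arrays. The mean over all 13 mural markers was 6.85 to 6.91 in col LEC, 7.04 to 7.94 in pre-col LEC and 6.79 to 7.28 in cap LEC, against 8.87 to 9.12 in BEC. By limma at adjusted p under 0.05, 12 of the 13 were lower in LEC, beside 10.6% of all genes tested. Pdgfrb, a receptor gene used as a pericyte marker though not limited to pericytes, had means of 7.20 in col LEC, 8.02 in pre-col LEC and 7.0 in cap LEC, against 10.78 in BEC. Rgs5, another such marker, had means of 7.33, 9.02 and 7.49 in col, pre-col and cap LEC, against 11.45 in BEC. Log2 array values have no true 0, and none of the 13 could be called absent. The part of such cells in the Cdh2 difference, and in those of Pcdh1, Pcdh17 and Pcdh19 given below, was not tested. Among LEC arrays, pre-col LEC replicate 1 had the highest mural mean, 7.94, and its Cdh2 value of 5.89 lay within the other LEC values.

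Cdh11 (TC0800002783.mm.1) encodes a type II cadherin known from osteoblasts and fibroblasts. It was at 8.71, 8.36 and 8.28 in col LEC, at 8.36, 7.88 and 8.02 in pre-col LEC and at 7.94, 7.73 and 8.12 in cap LEC, against 8.10, 7.69 and 7.44 in BEC. The col LEC arrays were above the cap LEC and BEC arrays, and the other groups overlapped. Group means were 8.45 ± 0.23 in col LEC, 8.09 ± 0.24 in pre-col LEC, 7.93 ± 0.19 in cap LEC and 7.74 ± 0.33 in BEC (SD, n = 3 each). The difference was 0.52 ± 0.18 for col LEC minus cap LEC and 0.70 ± 0.18 for col LEC minus BEC. The remaining pairs of groups differed by 0.36 or less, and the LEC average minus BEC was 0.41 ± 0.15. The last value was 0.26 without BEC replicate 3 and 0.59 without BEC replicate 1, where it passed the threshold over all genes.

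In col LEC and pre-col LEC, the array highest in Cdh11 was also highest in fibroblast markers, which was not so in cap LEC and BEC. The mean of 11 measured fibroblast markers of 12 was 6.54 to 7.37 in col LEC, 6.71 to 8.16 in pre-col LEC and 6.54 to 6.83 in cap LEC, against 7.05 to 7.25 in BEC. Its 2 highest values, 8.16 and 7.37, were those of replicate 1 of pre-col LEC and of col LEC, which had the highest Cdh11 values of their groups, 8.36 and 8.71. Col LEC replicate 2 reached 8.36 in Cdh11 as well, with a fibroblast mean of 6.54. Without col LEC replicate 1 the Cdh11 difference between col LEC and cap LEC was 0.39, and without pre-col LEC replicate 1 that between pre-col LEC and cap LEC was 0.02, against 0.16 with it. Among the fibroblast markers, Dcn had means of 7.41 in col LEC, 8.16 in pre-col LEC and 6.69 in cap LEC, against 5.74 in BEC, and Col1a1 had means of 8.28, 8.51 and 8.11 in col, pre-col and cap LEC, against 8.76 in BEC. The part of fibroblast RNA in the Cdh11 values, if any, was not tested.

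**Figure D2:**
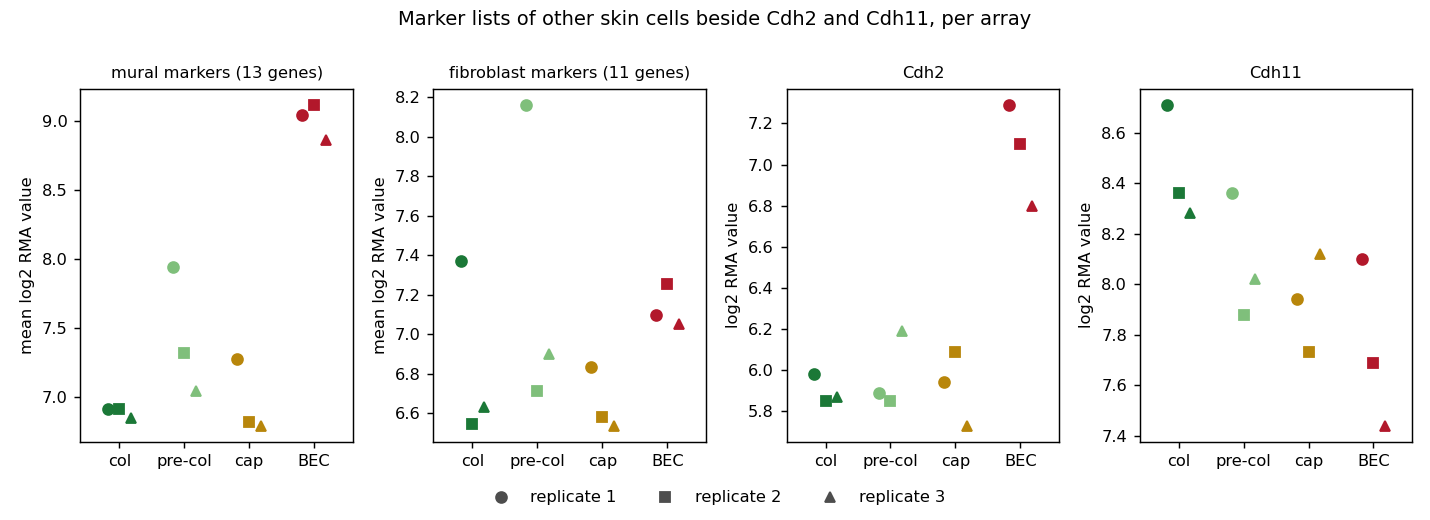
Mean log2 RMA value of 13 mural and 11 fibroblast markers (2 left panels) and the log2 RMA values of Cdh2 and Cdh11 (2 right panels) on each array, by group on the x axis. Mural markers and Cdh2 are both higher on the BEC arrays, and the fibroblast means of 8.16 and 7.37 belong to replicate 1 of pre-col LEC and col LEC, the arrays highest in Cdh11 within their groups.

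Of the 8 genes, Pcdh7 and Pcdh17 differed most between collecting and capillary cells, in opposite directions. Their promoter windows run from 250 bases before to 50 bases after the start that the promoter table uses. They are shown as the only windows of the 8 genes used here, although Pcdh12 also changed along the lymphatic vessel. Both come from RefSeq, build GRCm38.p6, plus strand. The start used for Pcdh7 lies inside the gene, downstream of its outermost annotated start. The Pcdh7 window is chr5:57717831-57718130 and the Pcdh17 window is chr14:84443313-84443612. Both are written 5′ to 3′, and capitals mark matches, on either strand, to the forkhead core (T, G, T, T, T, A) and the CCAAT box (C, C, A, A, T), of which the Pcdh7 window has none.
Pcdh7: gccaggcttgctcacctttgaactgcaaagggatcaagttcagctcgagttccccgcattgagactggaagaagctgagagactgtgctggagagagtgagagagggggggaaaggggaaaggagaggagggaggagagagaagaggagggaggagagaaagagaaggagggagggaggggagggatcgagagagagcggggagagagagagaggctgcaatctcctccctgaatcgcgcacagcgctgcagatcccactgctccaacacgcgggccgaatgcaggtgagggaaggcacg
Pcdh17: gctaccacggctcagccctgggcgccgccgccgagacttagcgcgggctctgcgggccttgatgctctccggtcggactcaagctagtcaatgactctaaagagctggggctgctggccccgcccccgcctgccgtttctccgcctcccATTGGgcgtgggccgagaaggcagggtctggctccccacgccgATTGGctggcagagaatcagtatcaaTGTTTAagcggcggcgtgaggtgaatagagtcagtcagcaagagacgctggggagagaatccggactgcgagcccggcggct
The Pcdh7 window was 59.3% G and C with 11 CpG sites, and the Pcdh17 window was 65.0% with 26, against medians of 52.7% and 7 over 32851 mouse windows of this length.

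A set of 5 short motifs tied to endothelial or general transcription factors were searched on both strands. The forkhead core had 1 match in the Pcdh17 window, at -32 from the start, and none in that of Pcdh7; 13.4% of all windows held it. The CCAAT box had 2 matches in the Pcdh17 window, at -101 and -58, and none in that of Pcdh7, with a match in 37.4% of all windows. The ETS core (G, G, A, A) had 5 matches in the Pcdh7 window and none in that of Pcdh17, with a match in 96.0% of all windows. Neither window held the GATA core (G, A, T, A, A; 25.4% of windows) or the KLF core (C, A, C, C, C; 57.5% of windows). None of these matches overlapped another, and a match is a description of the sequence only.

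Pcdh7 (TC0500000560.mm.1) encodes a protocadherin studied in the nervous system and in tumours. Its values were 8.46, 8.31 and 8.41 in col LEC and 7.06, 7.23 and 6.73 in pre-col LEC. In cap LEC they were 6.78, 6.78 and 6.59, and in BEC 6.74, 6.83 and 7.20. The col LEC arrays stood above every other array, and those of pre-col LEC, cap LEC and BEC overlapped. Means were 8.39 ± 0.07 in col LEC, 7.01 ± 0.25 in pre-col LEC, 6.71 ± 0.11 in cap LEC and 6.92 ± 0.24 in BEC (SD, n = 3 each). Col LEC were higher than cap LEC by 1.68 ± 0.14 (3.20-fold), than pre-col LEC by 1.39 ± 0.14 (2.62-fold) and than BEC by 1.47 ± 0.14 (2.77-fold). Pre-col LEC minus cap LEC was 0.29 ± 0.14, or 17.4% of the log2 distance from cap LEC to col LEC, and it moved to 0.18 without pre-col LEC replicate 2 and 0.43 without pre-col LEC replicate 3. The LEC average over 3 groups minus BEC, 0.45 ± 0.12, rested on col LEC, since pre-col LEC minus BEC was 0.08 ± 0.14 and cap LEC minus BEC was -0.21 ± 0.14.

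Pcdh17 (TC1400001115.mm.1) encodes a protocadherin that shapes axons and synapses in mouse brain. It was at 6.84, 6.08 and 5.95 in col LEC and at 8.11, 7.26 and 7.45 in pre-col LEC. In cap LEC it was at 8.53, 7.94 and 7.70, and in BEC at 9.53, 9.64 and 9.03. Arrays of col LEC were below all others and those of BEC above all others, while pre-col LEC and cap LEC overlapped, and replicate 1 was the highest array of each LEC group. Group means were 6.29 ± 0.48 in col LEC, 7.61 ± 0.45 in pre-col LEC, 8.06 ± 0.43 in cap LEC and 9.40 ± 0.32 in BEC (SD, n = 3 each), and no other of the 8 genes had as wide a spread within the LEC groups. Col LEC were lower than cap LEC, with a log2 difference of -1.77 ± 0.29 (3.40-fold) and lower than BEC, with a difference of -3.11 ± 0.29 (8.62-fold). The difference was -1.32 ± 0.29 for col LEC minus pre-col LEC and -0.45 ± 0.29 for pre-col LEC minus cap LEC, which is 25.5% of the distance from cap LEC to col LEC. Single arrays moved the smaller difference, to -0.21 without cap LEC replicate 1 and to -0.70 without pre-col LEC replicate 1. Leaving out only 1 of these arrays takes the highest array from 1 group and not from the other. Each pre-col LEC array was below the cap LEC array of the same number. The labels do not say what a number stands for, so nothing is read from this order. Relative to BEC, cap LEC differed by -1.34 ± 0.29 and pre-col LEC by -1.79 ± 0.29. Values of col LEC reached the array median, so that these differences may be compressed.

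Pcdh12 (TC1800001229.mm.1) encodes a protocadherin of endothelium, once named VE-cadherin-2, that does not bind catenins. Its values were 7.49, 8.02 and 7.96 in col LEC and 8.22, 8.41 and 8.38 in pre-col LEC. In cap LEC they were 8.61, 8.76 and 8.76, and in BEC 8.87, 9.24 and 8.92. No 2 groups overlapped, in the order col LEC, pre-col LEC, cap LEC and BEC from low to high. The means were 7.82 ± 0.29, 8.34 ± 0.10, 8.71 ± 0.09 and 9.01 ± 0.20 in that order (SD, n = 3 each). Differences were -0.89 ± 0.14 for col LEC minus cap LEC, -0.51 ± 0.14 for col LEC minus pre-col LEC and -0.38 ± 0.14 for pre-col LEC minus cap LEC, so that pre-col LEC covered 42.4% of the distance from cap LEC. Both ends were lower than BEC, with a difference of -1.18 ± 0.14 for col LEC and -0.30 ± 0.14 for cap LEC. Without col LEC replicate 1, the lowest array, col LEC minus cap LEC was -0.72.

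Pcdh1 (TC1800001227.mm.1) encodes a protocadherin known from airway epithelium. It was at 8.01, 7.88 and 7.80 in col LEC, at 8.16, 7.90 and 7.94 in pre-col LEC and at 8.0, 8.04 and 7.99 in cap LEC, against 10.57, 10.80 and 10.67 in BEC. BEC arrays were far above all LEC arrays, and the 3 LEC groups overlapped. Means were 7.89 ± 0.11 in col LEC, 8.0 ± 0.14 in pre-col LEC and 8.01 ± 0.03 in cap LEC, against 10.68 ± 0.11 in BEC (SD, n = 3 each). The LEC average over 3 groups minus BEC was -2.71 ± 0.08, a 6.56-fold lower value in LEC and the difference with the smallest error relative to its size among the 8 genes. Among the LEC groups the largest difference was -0.12 ± 0.09, for col LEC minus cap LEC.

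Neighbours in the order of the group means were separate for some genes only. Pcdh12 had no overlapping neighbours, and Pcdh17 had overlap only between pre-col LEC and cap LEC. For Pcdh7 the order from low to high was cap LEC, BEC, pre-col LEC and col LEC, with overlap between each pair of neighbours below col LEC. For Cdh2, Cdh5, Cdh13 and Pcdh1 BEC stood above the LEC groups, which overlapped. For Cdh11 neighbours overlapped throughout, in the order BEC, cap LEC, pre-col LEC and col LEC.

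**Figure D3:**
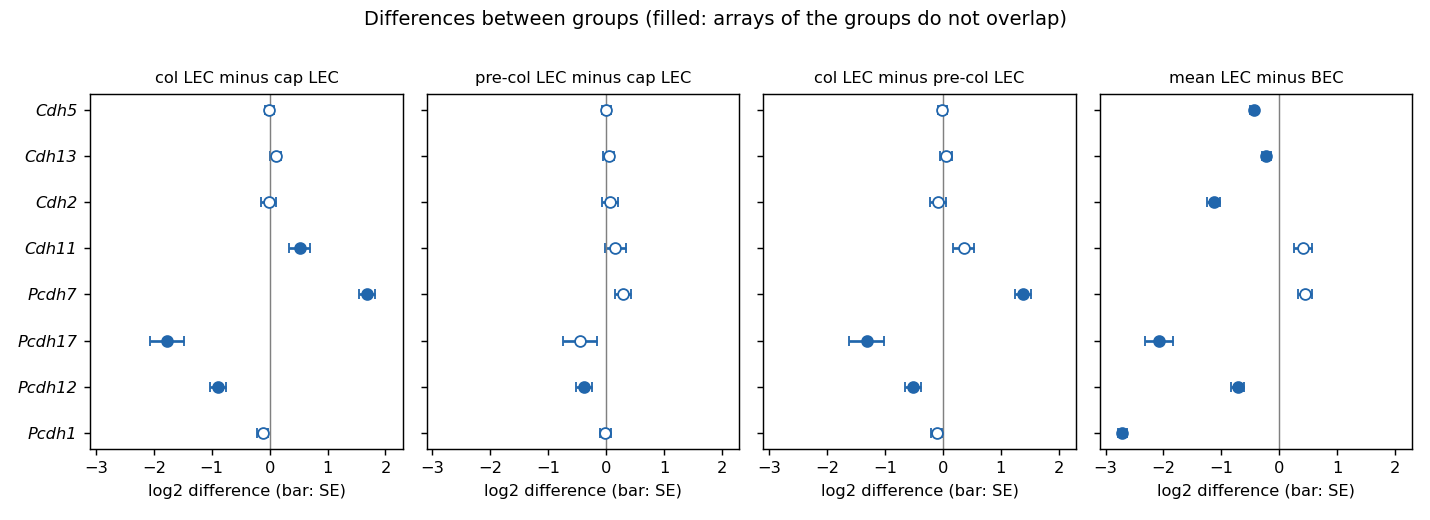
Log2 difference with its moderated SE (x axis) for each of the 8 genes (y axis) in 4 comparisons, with filled points where the arrays of the groups do not overlap. Pcdh7 lies to the right in both comparisons of col LEC with other LEC, Pcdh17 and Pcdh12 to the left, and 6 genes are lower in LEC than in BEC without overlap.

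Set against all 19677 genes tested, the counts were as follows, and since the genes were chosen with these contrasts known, nothing is read from them. In col LEC minus cap LEC, 1.63% of genes had an adjusted p under 0.05 by limma (0.651% were higher, 0.981% lower) and 20.8% had arrays without overlap. Of the 8 genes, Pcdh7 passed as higher and Pcdh12 and Pcdh17 as lower, and these 3 and Cdh11 did not overlap. In col LEC minus pre-col LEC, 0.28% passed (0.112% higher and 0.168% lower) and 11.3% had no overlap. There Pcdh7 passed, and Pcdh7, Pcdh12 and Pcdh17 did not overlap. In pre-col LEC minus cap LEC, 0.0% passed and 14.2% had no overlap, among them Pcdh12. For LEC (the 3 groups averaged) minus BEC, 22.6% passed (12% higher and 10.6% lower) and 17.8% had no overlap. Of the 8 genes 6 passed, Pcdh7 as higher and Cdh2, Cdh5, Pcdh1, Pcdh12 and Pcdh17 as lower, and these 5 lower genes and Cdh13 had no overlap. Cdh2 met the limit on low values only through BEC, so its call and its lack of overlap were favoured in advance. Without BEC replicate 1 or 2 Pcdh7 no longer passed, at 0.35 and 0.40. Median differences of the 8 genes were -0.01, -0.04, 0.02 and -0.58 in these 4 comparisons in that order, against 0.03, 0.02, 0.00 and -0.02 over all genes.

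Of the comparisons over all genes, that of pre-col LEC with cap LEC had 0 calls by limma, with 1256 genes at an unadjusted p under 0.05. It had 13 calls with cyclic loess, 28 with array weights and 3 with a replicate block. The 321 calls of col LEC against cap LEC fell to between 177 and 201 without any 1 of the 3 col LEC or 3 cap LEC arrays. The 55 calls of col LEC against pre-col LEC became 22 and 33 when replicate 1 or 2 of col LEC was left out, and 27 and 35 when replicate 2 or 3 of pre-col LEC was.

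Over the 12 arrays the 8 genes varied together to different degrees. Pearson correlations, given as a description over arrays that share their groups, were 0.95 between Cdh2 and Pcdh1, 0.94 between Cdh2 and Cdh5 and 0.83 between Pcdh12 and Pcdh17. They were -0.81 between Pcdh7 and Pcdh12 and -0.74 between Pcdh7 and Pcdh17. Among all genes tested, those whose values were most like each gene's by Pearson correlation over the same 12 arrays were Slain1 (0.95), Adm (0.95) and Ahsg (0.95) for Pcdh7, Cyp4b1-ps2 (0.97), Hecw2 (0.96) and C1qtnf1 (0.95) for Pcdh17, and Ccnd2 (0.98), Dysf (0.97) and Pcp4l1 (0.95) for Pcdh12. For Pcdh1 they were Scarb1, Notch4 and Slc28a2b, each at 1.00 after rounding. Cdh2 was closest to Abcb1b (0.98), Rasgrf2 (0.98) and Ric1 (0.98). For the genes that varied least, the nearest were Trim25 (0.97), Tnfaip1 (0.97) and Igf2r (0.97) for Cdh5, Itga5 (0.94), Midn (0.93) and Bcl6b (0.92) for Cdh13, and Zfp644 (0.92), Dmxl1 (0.91) and Larp4 (0.90) for Cdh11.

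The rest of the cadherin superfamily was compared through 6 lists with 53 genes, of which 52 had a row of their own and 26 were tested. None of the 9 desmosomal cadherins, 3 of 7 other non-clustered protocadherins and 3 of 12 other type II cadherins were above the limit on low values. The 26 genes with a row that were not tested had group means of 3.46 to 6.34. Cdh1, the epithelial E-cadherin, was tested but lay near the array median, at 6.12 ± 0.08 in col LEC, 6.16 ± 0.08 in pre-col LEC and 6.04 ± 0.07 in cap LEC, against 6.28 ± 0.30 in BEC (SD, n = 3 each), with no call in any comparison.

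Between col LEC and cap LEC, 1 of these 26 genes passed the test and none was higher, while 1.63% of all genes tested passed. Clstn1, which encodes calsyntenin, a cadherin-related protein that links cargo to kinesin motors, was at 9.95, 10.31 and 10.29 in col LEC, 10.71, 10.92 and 10.79 in pre-col LEC and 11.12, 11.14 and 11.21 in cap LEC, against 10.13, 10.02 and 10.16 in BEC. The LEC groups did not overlap, and col LEC lay beside BEC. Clstn1 was lower in col LEC than in cap LEC with a log2 difference of -0.97 ± 0.10 (limma, adjusted p = 0.000378), and lower than in pre-col LEC, at -0.62 ± 0.10 (limma, adjusted p = 0.0299). The call against pre-col LEC was lost in 9 of 18 alternatives, in 8 of them by leaving out 1 array (any of col LEC or cap LEC, or pre-col LEC replicate 2 or 3), with a difference between -0.68 and -0.51 over all 18. No gene of the family passed in pre-col LEC minus cap LEC by limma, where 0.0% of all genes tested passed. The median differences of the 26 genes were 0.10 in col LEC minus cap LEC, 0.07 in pre-col LEC minus cap LEC and -0.10 in LEC minus BEC, beside 0.03, 0.00 and -0.02 over all genes.

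Between LEC and BEC, 2 of the 26 were higher and 6 lower in LEC, beside 12% higher and 10.6% lower of all genes tested. Celsr1, a large cadherin of planar cell polarity that is needed for lymphatic valve formation in mice, was at 10.63, 10.82 and 10.59 in col LEC, 10.38, 10.86 and 10.74 in pre-col LEC and 10.41, 10.62 and 10.71 in cap LEC, against 8.63, 8.50 and 8.64 in BEC. It was higher in all LEC arrays, by 2.05 ± 0.10 (limma, adjusted p = 2.29e-08), and the LEC groups overlapped. Clstn1 was higher by 0.61 ± 0.08 (limma, adjusted p = 0.000155), with overlap between col LEC and BEC.

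Pcdh19, a protocadherin that works with N-cadherin in zebrafish and whose loss causes epilepsy in humans, had the largest decrease of the family. It was at 5.76, 5.75 and 5.79 in col LEC, 6.43, 5.75 and 5.66 in pre-col LEC and 5.97, 5.60 and 5.83 in cap LEC, against 9.04, 9.30 and 8.63 in BEC. The log2 difference was -3.15 ± 0.16, given as a description without a p-value. Since most LEC values lay below the array median, Pcdh19 passed the limit on low values through BEC and had to differ. It is among the family genes counted as lower, but its call was favoured in advance and is no support. The mural markers described beside Cdh2 were higher on the same BEC arrays. Cdh23, a cadherin of the tip links of hair cells, was lower in LEC, with a difference of -1.79 ± 0.06 (limma, adjusted p = 1.3e-09), with 6.44 to 6.72 on the LEC arrays, against 8.47, 8.33 and 8.50 in BEC.

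Fat4, a giant cadherin that pairs with Dachsous proteins and is needed for lymphatic vessel shape in mice, was lower in LEC, with a difference of -1.09 ± 0.08 (limma, adjusted p = 3.65e-07). It had 10.18, 10.14 and 10.31 in col LEC, 9.57, 9.85 and 9.79 in pre-col LEC and 9.87, 9.94 and 9.99 in cap LEC, against 11.11, 10.95 and 11.10 in BEC. Its partner Dchs1 had means of 9.97 ± 0.06 in col LEC, 9.79 ± 0.15 in pre-col LEC and 9.61 ± 0.29 in cap LEC, against 10.18 ± 0.34 in BEC (SD, n = 3 each), and no comparison of it passed. Smaller decreases were found for Fat1 at -0.80, for Cdh6 at -0.63 and for Cdh3, the P-cadherin of epithelia, at -0.54. Of 10 keratinocyte markers 7 were tested. Krt5, Krt14 and Sfn were called lower in LEC than in BEC, with differences of -0.44, -0.41 and -1.11, and the other 4 did not pass. Of all genes tested, 10.6% were called lower. The mean over all 10 markers was 6.53 to 6.79 in col LEC, 6.52 to 6.65 in pre-col LEC and 6.40 to 6.58 in cap LEC. In BEC it was 6.79 to 7.11, with overlap between col LEC and BEC. The part of epidermal RNA in the Cdh3 difference was not tested.

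**Figure D4:**
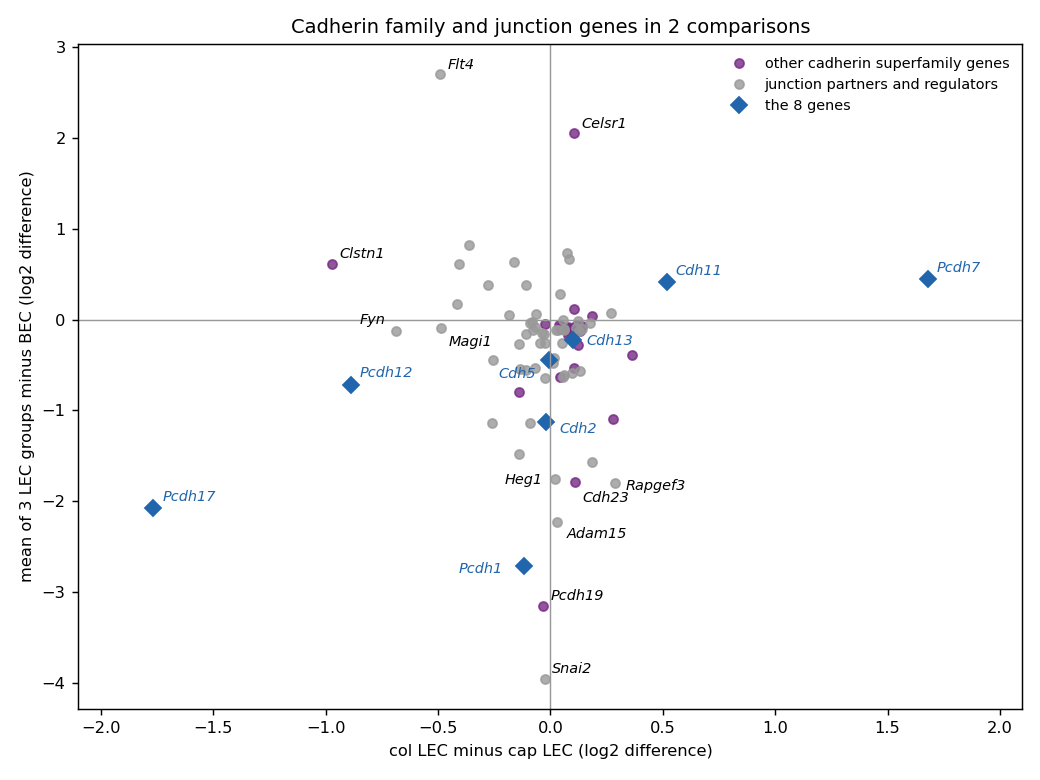
Log2 difference of col LEC minus cap LEC (x axis) against that of the LEC average minus BEC (y axis) for the 8 genes (blue diamonds), 26 other cadherin superfamily genes (purple) and 55 junction partners and regulators (grey). Most genes lie close to the vertical line at 0, with Pcdh7 at 1.68 to the right and Pcdh17 at -1.77 and Clstn1 at -0.97 to the left. Snai2 at -3.95 and Flt4 at 2.70 mark the ends of the vertical axis.

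Genes that bind, regulate or cut cadherins were compared through 4 lists with 61 genes, of which 57 had a row of their own and 55 were tested. Between col LEC and cap LEC 3 were lower and none higher, beside 0.981% lower and 0.651% higher of all genes tested. Fyn, a Src family kinase that phosphorylates junction proteins, was at 9.09, 9.24 and 9.20 in col LEC, 9.57, 9.65 and 9.59 in pre-col LEC and 9.79, 9.95 and 9.85 in cap LEC, against 9.62, 9.64 and 9.76 in BEC. The LEC groups did not overlap. Fyn was lower in col LEC, with a difference of -0.69 ± 0.08 relative to cap LEC (limma, adjusted p = 0.000577) and of -0.43 ± 0.08 relative to pre-col LEC (limma, adjusted p = 0.0477). The call against pre-col LEC was lost in 14 of 18 alternatives, with a difference between -0.46 and -0.39.

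Magi1, a scaffold at endothelial and epithelial junctions, was lower in col LEC than in cap LEC, with a difference of -0.48 ± 0.09 (limma, adjusted p = 0.0169). Flt4, the receptor of VEGF-C, which forms complexes with VE-cadherin, was also lower, with a difference of -0.49 ± 0.11 (limma, adjusted p = 0.0483). The Magi1 call was lost in 5 of 18 alternatives, among them the omission of col LEC replicate 1 or of any cap LEC array, with differences between -0.53 and -0.39. That of Flt4 was lost in 12, among them the omission of any col LEC or cap LEC array, of pre-col LEC replicate 3 or of BEC replicate 1 or 2, with differences between -0.55 and -0.42. None of the 55 passed in pre-col LEC minus cap LEC by limma, where 0.0% of all genes tested passed.

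Between LEC and BEC, 8 of the 55 were higher and 20 lower in LEC, with a median of -0.12 beside -0.02 over all genes. Of all genes tested, 12% were called higher and 10.6% lower in this comparison. Of 20 tested phosphatases, kinases and receptors around VE-cadherin 3 were higher and 6 lower. Ptprb, the phosphatase VE-PTP that keeps VE-cadherin dephosphorylated, was at 11.18, 11.12 and 11.21 in col LEC, 11.10, 11.08 and 11.06 in pre-col LEC and 10.96, 10.95 and 11.04 in cap LEC, against 12.73, 12.63 and 12.57 in BEC. It was lower in every LEC array, with a difference of -1.57 ± 0.06 (limma, adjusted p = 1.42e-09). The phosphatases Ptprj (-1.48) and Ptprm (-1.14), the junction receptor Heg1 (-1.75) and the exchange factors Rapgef3 (-1.79) and Rapgef1 (-1.14), which activate RAP proteins that tighten endothelial junctions, were lower too. Ptprj lay below the array median on most LEC arrays, so that it passed the limit on low values through BEC and had to differ. Its place among the 6 lower genes was thus favoured in advance and is no support. Flt4 was higher in LEC by 2.70 ± 0.09 (limma, adjusted p = 6.38e-10), as were Radil (0.63) and Amotl1 (0.61). Kdr, the receptor of VEGF-A, differed by -0.12 ± 0.07 and did not pass (limma, adjusted p = 0.274).

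Of 17 tested catenins and junction adaptors, 2 were higher and 7 lower in LEC than in BEC, beside 12% and 10.6% of all genes. Jup, which encodes plakoglobin, was higher by 0.38 ± 0.08 (limma, adjusted p = 0.00326) and Ajuba by 0.67 ± 0.16 (limma, adjusted p = 0.0103). Without BEC replicate 3 the Ajuba call was lost, at 0.49 (limma, adjusted p = 0.0831). Lima1 (-0.64), Afdn (-0.63), Plekha7 (-0.61), Tjp1 (-0.56), Iqgap1 (-0.56), Vcl (-0.53) and Ctnnd2 (-0.26), which couple junctions to actin or bind catenins, were lower. The core catenins Ctnna1 and Ctnnd1 did not pass, with means of 10.23 ± 0.04 and 9.73 ± 0.07 in col LEC, 10.30 ± 0.33 and 9.77 ± 0.11 in pre-col LEC and 10.34 ± 0.24 and 9.80 ± 0.01 in cap LEC, against 9.91 ± 0.15 and 9.84 ± 0.12 in BEC (SD, n = 3 each). Of 5 nectins, immunoglobulin-type adhesion proteins of the same junctions, Nectin2 was higher by 0.82 ± 0.12 (limma, adjusted p = 0.000246) and Pvr was lower, at -0.54 ± 0.17 (limma, adjusted p = 0.0393). The Pvr call was lost in 9 of 18 alternatives, with differences between -0.75 and -0.34.

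Of 13 tested proteases and transcriptional regulators of cadherins, 2 were higher and 6 lower in LEC than in BEC. The shares of all genes were 12% and 10.6%. Adam10, the protease that cuts VE-cadherin and N-cadherin at the cell surface, was higher by 0.73 ± 0.13 (limma, adjusted p = 0.00169). The related protease Adam15 was at 8.43, 8.59 and 8.27 in col LEC, 8.38, 8.61 and 8.26 in pre-col LEC and 8.33, 8.43 and 8.44 in cap LEC, against 10.57, 10.71 and 10.64 in BEC, a difference of -2.23 ± 0.09 (limma, adjusted p = 2.37e-09). Snai2, a repressor of E-cadherin in epithelial cells, was at 6.36, 6.06 and 6.20 in col LEC, 6.13, 5.93 and 6.15 in pre-col LEC and 6.16, 6.29 and 6.24 in cap LEC, against 10.41, 10.23 and 9.73 in BEC. LEC and BEC were far apart in Snai2, with a difference of -3.95 ± 0.12 (limma, adjusted p = 4.37e-10), the largest difference of all lists of partners. The part of mural cells, whose markers were higher in the same BEC arrays, was not tested. Smaller differences were found for Fli1 (-0.58), Tcf3 (-0.48), Ets1 (-0.44) and Tcf4 (-0.27), and for Tal1 in the other direction (0.28).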

How the data were processed

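Gene expression was measured on Affymetrix whole-transcript arrays from 500 pg of total RNA per sample, amplified to biotinylated cDNA per the labels' protocols. The authors deposited RMA values on the log2 scale, as the submitters' processing notes and the range of the values show. RMA compresses weak signals, and no software version or annotation for it is given in the sources used here. Of 72688 rows, 65956 were transcript clusters. Names came from the platform annotation (30604 rows with 1 symbol, 2146 with several, 33206 with none), and 839 symbols were updated with a RefSeq table (GRCm38.p6). Rows naming several genes were left out, among them those of Ctnnb1, Rasip1 and Zeb2. Dchs2 was not analysed here. A gene with several rows was taken at its brightest, and 19677 genes that exceeded the array median on at least 3 arrays were tested. Because no build is named for the array, no gene coordinates are given beyond the promoter windows.

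Group means were fitted with limma 3.58.1 (statmod 1.5.0, R 4.3.3) on all 12 arrays, with 8 residual and 3.63 prior degrees of freedom and a median SD within groups of 0.141. P-values are two-sided and Benjamini-Hochberg adjusted over all genes tested, called under 0.05. Errors beside differences are moderated standard errors. The procedure was tested on simulated data. Tables used pandas 2.3.3 in Python 3.11.15, and plots matplotlib 3.10.9. The 18 alternatives are given in the closing section. The 8 genes, the lists and the tests were chosen with earlier results of these data known. Genes were named by a rule: the 8 members, up to 4 called genes of largest difference per list and comparison, and the 3 genes most like each member, without predicted genes, small RNAs, olfactory and vomeronasal receptors and immune receptor segments. Further list genes that passed, and Cdh1, Dchs1, Kdr, Ctnna1 and Ctnnd1, which did not, were named after their values were seen.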

Additional observations from a re-analysis of the deposited data

How the results depend on the processing

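Of 576 values of the 8 genes' differences (32 differences under 18 alternatives), 574 moved by less than 1 SD, and no called difference changed sign. The other 2 came with cyclic loess, which gave Cdh5 -0.58 and Cdh13 -0.34 for LEC minus BEC. Many of the 576 values could not move, so this count does not measure robustness. Each gene had 1 row, so averaging rows or dropping the filter on dim genes left its differences unchanged. So did fitting only the groups compared, the balanced replicate block, and leaving out an array outside the comparison. Array weights gave 791 calls over all genes in col LEC minus cap LEC, 28 in pre-col LEC minus cap LEC and 152 in col LEC minus pre-col LEC, and cyclic loess gave 13 in pre-col LEC minus cap LEC. Fitting only the groups compared gave 5 calls in col LEC minus pre-col LEC. Leaving out 1 array gave 177 to 350, 0 to 1 and 22 to 62 calls in these 3 comparisons, and 3287 to 4348 in LEC minus BEC.

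Other cadherins had 2 calls with array weights in both col LEC minus cap LEC and col LEC minus pre-col LEC, and 0 in the second of these with only the groups compared. Leaving out 1 array gave 0 to 1 there. Partners had 1 to 4 calls in col LEC minus cap LEC and 0 to 1 in col LEC minus pre-col LEC without 1 array, and 0 in the second of these without a filter on dim genes or with only the groups compared. Of the 8 genes, 2 passed in col LEC minus pre-col LEC with array weights (Pcdh7 and Pcdh17) and 0 with only the groups compared.

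The replicate block gave 3 calls over all genes in pre-col LEC minus cap LEC, 0 among partners and 2 among the 8 genes in col LEC minus pre-col LEC. With it Pcdh17 passed there beside Pcdh7, and Cdh11 and Cdh13 passed in LEC minus BEC, as Cdh13 did with cyclic loess and Cdh11 without BEC replicate 1. Same-numbered arrays of different groups had correlations of -0.0933 to 0.208 (7 of 18 over 0.1), against -0.143 to 0.176 (2 of 36 over 0.1) for arrays with different numbers. Between LEC groups all 9 same-numbered correlations were positive, at 0.0461 to 0.208. Those of LEC arrays with different numbers were lower throughout, at -0.143 to 0.0242. The correlations are of deviations from group means, which sum to 0 in each group. Positive same-numbered values therefore push the others down, so the lower values are no separate evidence. By the positive values alone, same-numbered LEC arrays shared some variation, which was not seen in every pair with BEC. The labels do not say what a number stands for, so the main fit has no pairing and the replicate block is an alternative. The cause of these shifts was not tested. Values below the negative control percentile limit Cdh2, Cdh11, Pcdh7 and the LEC values of Pcdh1, Pcdh12 and Pcdh17.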

Other observations

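Among the protocadherins below the limit on low values, Pcdh18 was at 4.83, 4.81 and 4.76 in col LEC, 5.04, 4.84 and 5.24 in pre-col LEC and 4.74, 4.64 and 4.81 in cap LEC, against 6.79, 6.35 and 5.87 in BEC. It was chosen after its values were seen and was not tested. The BEC arrays were above all LEC arrays, as for Pcdh1, Pcdh17 and Pcdh19. Pcdh9 and Pcdh10 stayed below the array median on all 12 arrays.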
